A study of Mus musculus with 272 samples.

Results

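The genes described here take part in compaction and in the formation of the blastocoel, the fluid-filled cavity of the blastocyst. They are Cdh1, Tjp1, Ocln, F11r, Cldn4, Cldn6, Cldn7, Aqp3 and Atp1b1, listed by name for these roles, and all 9 were present among the 15854 gene symbols of the deposited expression table. Its unit is CPM, in which each gene's count is divided by the total of its library. RNA was measured in mouse oocytes at the germinal vesicle stage (GV) and at metaphase II (MII), in zygotes, in embryos of 2, 4 and 8 cells (2C, 4C, 8C), in morulae and in blastocysts. Every stage had 4 transcriptome libraries, each made from a pool of 20 oocytes or embryos, and 3 sucrose gradients (A, B and C), each from about 100. A gradient was divided into 10 fractions with 1 library each, so that the 272 libraries comprise 32 transcriptomes and 240 fractions. All gradient lysates contained cycloheximide, which holds ribosomes on the mRNA. The stage is the only difference between the groups that the labels give; strain, age and culture are not given in the sources used here. Pools at a stage may share a batch, which the sample labels do not name. The p-values measure the spread between pools or gradients, part of which may be technical. A level in CPM is a share of the RNA of the whole pool: fewer cells that express a gene and less of its RNA per cell cannot be told apart.

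At compaction the blastomeres flatten against each other, which depends on E-cadherin, the homophilic adhesion protein encoded by Cdh1. The outer cells then become a polarised epithelium, the trophectoderm, whose cells are sealed to each other by tight junctions. Claudins (here Cldn4, Cldn6 and Cldn7), occludin (Ocln) and the junctional adhesion molecule F11r span the membrane at these junctions, and the scaffold ZO-1 (Tjp1) links them to actin. The sodium pump, of which Atp1b1 encodes a beta subunit, exports sodium towards the inner side, and water follows, in part through aquaporins such as Aqp3. In a polysome gradient, mRNAs that carry more ribosomes sediment further; fractions 6 to 10 are called heavy here and fractions 1 to 5 light, by the usual numbering from the top, since the labels give numbers only.

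The promoters of F11r, the 3 claudins and Aqp3 are shown because these are the 5 members whose heavy-fraction level rose between GV and blastocyst. RefSeq promoter entries on GRCm38.p6 matched 8 of the 9 genes; Cdh1 was not matched. Each sequence below is the 250 bases before the listed transcription start, 5′ to 3′ on the gene's strand. F11r lies at chr1:171437311-171437560 on the plus strand, Cldn4 at chr5:134946935-134947184 on the minus strand, Cldn6 at chr17:23679115-23679364 on the plus strand, Cldn7 at chr11:69964529-69964778 on the plus strand (the first of 2 listed starts) and Aqp3 at chr4:41098184-41098433 on the minus strand. Capitals mark matches on either strand to the KLF motif CACCC, which on the other strand reads GGGTG, or to the TEAD motif GGAATG.
F11r: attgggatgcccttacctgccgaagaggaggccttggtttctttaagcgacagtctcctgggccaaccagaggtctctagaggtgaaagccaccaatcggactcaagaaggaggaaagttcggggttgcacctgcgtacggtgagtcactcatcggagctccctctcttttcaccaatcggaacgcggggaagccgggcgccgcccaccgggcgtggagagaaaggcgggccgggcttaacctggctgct
Cldn4: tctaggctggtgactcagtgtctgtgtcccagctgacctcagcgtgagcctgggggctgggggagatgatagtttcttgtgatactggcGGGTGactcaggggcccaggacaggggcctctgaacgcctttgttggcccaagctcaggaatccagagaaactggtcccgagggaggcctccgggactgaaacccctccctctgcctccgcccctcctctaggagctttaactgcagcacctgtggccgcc
Cldn6: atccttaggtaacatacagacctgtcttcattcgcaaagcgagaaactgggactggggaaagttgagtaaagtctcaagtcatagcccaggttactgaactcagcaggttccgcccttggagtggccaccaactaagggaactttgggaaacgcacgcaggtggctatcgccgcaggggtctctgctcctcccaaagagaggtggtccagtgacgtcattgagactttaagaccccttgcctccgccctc
Cldn7: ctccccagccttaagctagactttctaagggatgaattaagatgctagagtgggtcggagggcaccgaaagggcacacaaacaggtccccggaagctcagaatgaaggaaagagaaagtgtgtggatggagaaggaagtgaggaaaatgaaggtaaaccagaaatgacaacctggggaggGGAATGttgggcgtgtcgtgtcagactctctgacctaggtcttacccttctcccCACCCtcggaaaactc
Aqp3: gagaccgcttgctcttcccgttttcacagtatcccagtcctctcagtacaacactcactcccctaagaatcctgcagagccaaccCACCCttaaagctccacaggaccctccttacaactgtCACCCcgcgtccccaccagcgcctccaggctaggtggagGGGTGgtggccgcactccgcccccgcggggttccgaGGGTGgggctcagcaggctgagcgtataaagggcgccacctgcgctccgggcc
TEAD factors act downstream of Hippo signalling in the trophectoderm, and KLF and AP-2 factors are expressed in preimplantation embryos. The TEAD letters occurred in Cldn7 alone among the 8 promoters, 70 to 65 bases before the start, and in 12.6% of all 27025 promoters of the table. The KLF letters occurred 4 times each in Aqp3 and Ocln, 2 times each in Tjp1 and Atp1b1, 1 time each in Cldn4 and Cldn7, and not in F11r or Cldn6; 51.3% of all promoters held them. The AP-2 letters GCCNNNGGC were in none of the 8 windows and in 13.6% of all promoters. No searched motif was in all 5 printed promoters. A match describes letters and not a bound site.

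The transcriptome libraries held 11.2 to 24.3 M reads and the fraction libraries 0.0102 to 43.2 M, with a median of 18.6 M. In the transcriptomes the summed CPM of 10 oocyte markers followed the labels, at 20867 to 23755 at GV and 7.88 to 13.1 in blastocysts. In the fraction libraries this sum had medians of 762 CPM at 4C and 369 CPM at 8C, with highest values of 3023 and 1470 CPM. The transcriptome medians of these stages were 69.1 and 48.3 CPM. The source of the oocyte marker reads in these gradients was not tested. Of 13 blastocyst markers 12 were in the table. Their sum was 51.4 to 71.5 CPM in GV oocytes, 339 to 459 in morulae and 2760 to 3450 in blastocysts. Its median was higher at MII (101 CPM) and zygote (113 CPM) than at 2C (84.3 CPM) and 4C (82.8 CPM). Gata3 alone was 107 CPM in zygotes. Most of the blastocyst sum came from Krt8 and Krt18, at 1219 and 886 CPM. Most genes described here were also highest in blastocysts. The part of these markers in the results was not tested. Of 16 cumulus and granulosa cell markers 10 were in the table, with sums of 724 to 807 CPM in GV, 1723 to 1992 in MII, 1311 to 1711 in zygote and 227 to 374 in blastocyst transcriptomes; from GV to zygote most of the sum came from Serpine2, at stage means of 570, 1520 and 1242 CPM, and Bmpr1b, at 158, 232 and 191 CPM. Amhr2 was at 0 in the transcriptomes of these stages, but 24.9 CPM at 4C, and Inha was 1.40 CPM in GV transcriptomes and 92.1 CPM in GV heavy fractions. The part of such cells in the GV and MII levels was not tested. Gradients of 2C and 4C repeated poorly, as counted over fractions 2 to 10, without fraction 1. Of gene values at 100 CPM or more in such a fraction of 2 gradients, 4.63% at 2C and 4.36% at 4C had no read in that fraction of the third gradient. This share was 1.17% at 8C and 0.00506% in blastocysts.

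In the transcriptomes, 8 of the 9 genes were higher in blastocysts than in GV oocytes, and only Ocln was not called. A gene was called changed when limma's adjusted p was below 0.05 and the difference was at least 1 on the log2(CPM + 1) scale, a scale that understates changes of low genes. From levels near 0 the size of a difference follows the number added: the rise from GV to blastocyst was 3.77 to 7.53 for Cldn6 and 2.42 to 7.83 for Aqp3 over the alternative settings, against 5.68 and 4.44. Of the 14642 genes tested between GV and blastocyst, 38.2% were called higher and 30.9% lower; the median difference was 2.94 over the 9 genes and 0.32 over all. From GV to MII 1 of the 9 genes rose and 1 fell, where 9.11% of all genes rose and 25.3% fell. Between MII and zygote none rose and 2 fell, with 5.79% and 4.48% of all genes. From zygote to 2C 3 rose and 2 fell (25.2% and 8.71% of all genes), and from 2C to 4C 5 rose and 2 fell (31.8% and 32.9%). Few genes changed from 4C to 8C (0.451% higher, 2.14% lower), among them 1 that rose and 1 that fell. Between 8C and morula 2 rose and none fell (8.18% and 3.70%). From morula to blastocyst 5 rose and none fell, against 18.8% and 7.97% of all genes, with a median difference of 1.31 against 0.16. Quantile normalization moved the share of called genes that rose from 26.4% to 55.6% at GV to MII, from 74.3% to 46.4% at zygote to 2C, from 17.4% to 49.8% at 4C to 8C, from 68.9% to 52.0% at 8C to morula and from 70.2% to 50.8% at morula to blastocyst.

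**Figure D1:**
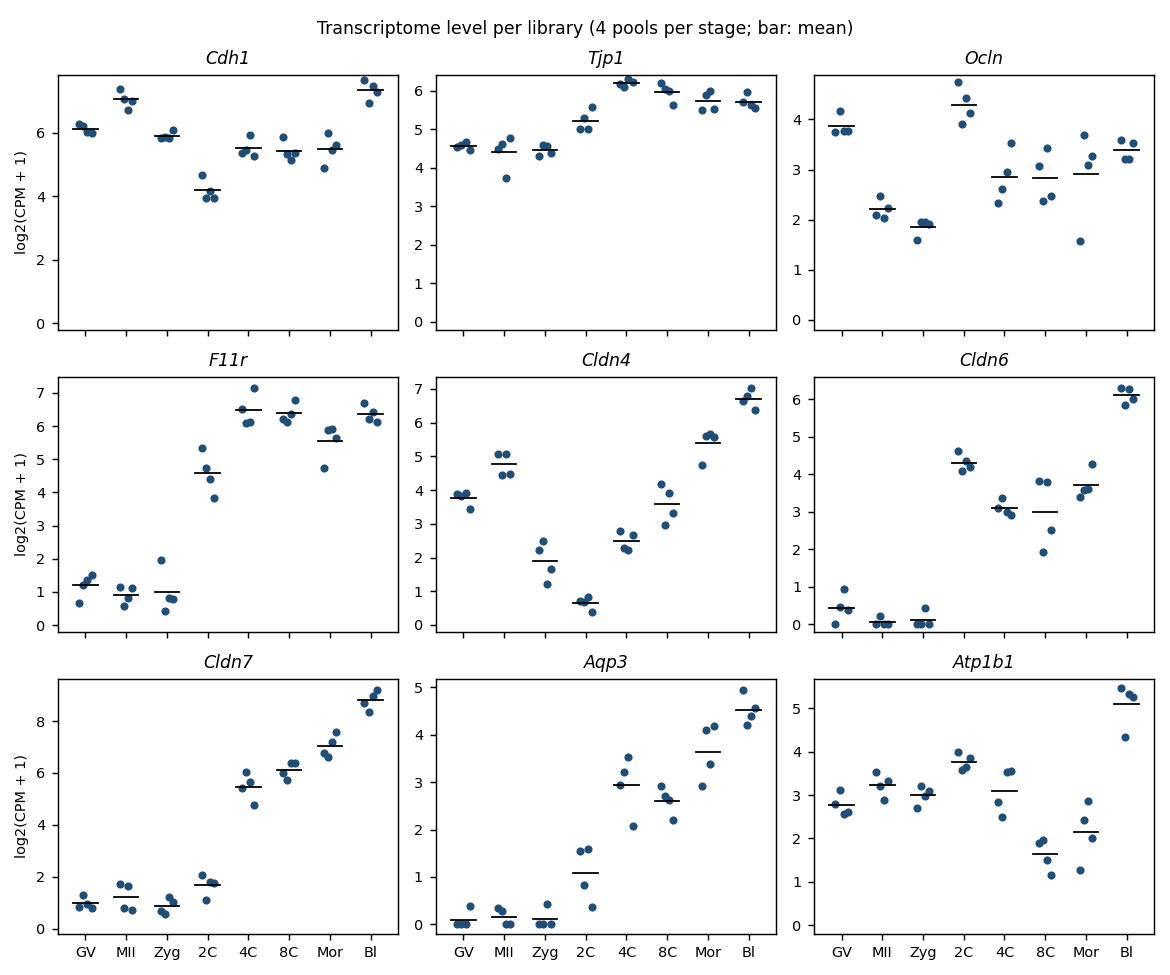
Transcriptome level of each gene by stage, in log2(CPM + 1), on a vertical scale of its own per gene; points are the 4 libraries of a stage and bars the mean of their log2 values. Cldn7 climbs from a stage mean of 0.975 CPM at GV to 454 CPM at blastocyst, whereas Tjp1 stays between 20.8 and 72.3 CPM.

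In the heavy fractions the genes parted. Between GV oocytes and blastocysts 5 of the 9 rose (F11r, Cldn4, Cldn6, Cldn7 and Aqp3) and 3 fell (Cdh1, Tjp1 and Ocln), where 27.6% of the 14524 genes tested rose and 40.4% fell. The value tested is the mean CPM over fractions 6 to 10 of a gradient; it weighs each fraction equally and not by its amount of RNA. At the individual steps, GV to MII had none that rose and 1 that fell (4.15% and 13.6% of all genes), and MII to zygote had no call in limma (3.71% and 2.44%), with an unadjusted p under 0.05 for 2 genes and 1 call by edgeR. Zygote to 2C had 2 that rose and 1 that fell (3.15% and 8.46%), and 2C to 4C the same numbers (7.56% and 10.9%). At 4C to 8C 1 rose (0.468%), and none fell (0.0138%). At 8C to morula 2 rose and none fell (6.73% and 3.83%). At morula to blastocyst limma called none of the 9 genes (1.81% and 1.63% of all genes), 0 had an unadjusted p under 0.05 and edgeR called 0. Under quantile normalization, the share of called genes that rose went from 23.4% to 45.1% at GV to MII, from 60.4% to 50.3% at MII to zygote, from 27.1% to 53.0% at zygote to 2C, from 97.1% to 64.3% at 4C to 8C and from 40.6% to 50.9% at GV to blastocyst.

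**Figure D2:**
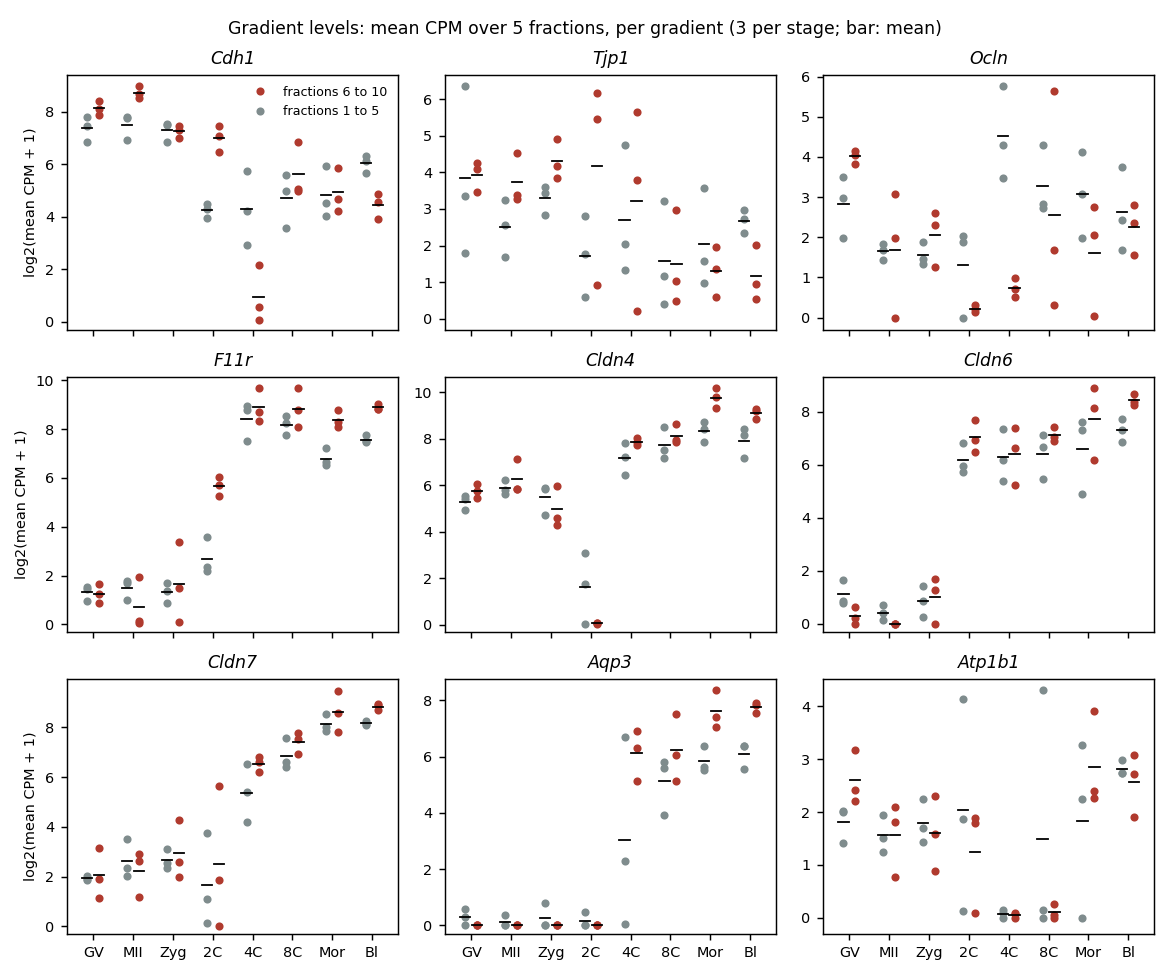
Mean CPM over heavy (fractions 6 to 10) and light (fractions 1 to 5) fractions by stage, in log2(mean CPM + 1), with heavy in red and light in grey; points are the 3 gradients of a stage and bars the mean of their log2 values. Heavy Aqp3 is at 0 in all gradients from GV to 2C and at 186 to 242 CPM in blastocysts, while heavy Cdh1 goes from 232 to 339 CPM in GV oocytes to 13.9 to 28.4 CPM in blastocysts.

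Cdh1, the adhesion gene of compaction, was maternal as well as embryonic. Its transcriptome level in libraries A to D was 76.6, 72.7, 63.6 and 63.6 CPM at GV and 168, 133, 105 and 129 CPM at MII. The zygote libraries held 55.8, 57.9, 56.6 and 67.2 CPM, and the 2C libraries, E to H, 24.4, 14.5, 17.2 and 14.4 CPM. Cdh1 was thus lowest at 2C, the only stage whose range overlapped no other. Both falls passed the test, by 1.14 from MII to zygote (SE 0.20, limma adjusted p = 3.34e-05; just under 1 with quantile normalization) and by 1.72 from zygote to 2C (SE 0.20, adjusted p = 3.38e-09). Cdh1 rose by 1.33 at 4C (adjusted p = 2.46e-07), to 45.6 ± 10.0 CPM (SD, n = 4), and 4C, 8C and morula ranges overlapped. Blastocyst libraries held 200.7, 123, 177 and 156 CPM, all above the morula libraries at 29.0, 63.5, 43.4 and 48.3 CPM. That rise was 1.84 (SE 0.20, adjusted p = 1.89e-09). Against GV the blastocyst level was higher by 1.22 (adjusted p = 1.14e-06), which fell below 1 with TMM factors (0.86) and in edgeR on recovered reads (0.94).

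The heavy-fraction level of Cdh1 took another course. Gradients A, B and C held 275, 339 and 232 CPM at GV, 500, 367 and 409 CPM at MII and 176, 126 and 155 CPM in zygotes. At 2C they held 134, 87.2 and 175 CPM, and at 4C 0.0561, 3.49 and 0.467 CPM, with no Cdh1 read in 12 of the 30 fraction libraries of 4C. The 2C means came mostly from few fractions. Gradient A had 411 and 257 CPM in fractions 8 and 10, B had 423 CPM in fraction 8, and C had 430 and 403 CPM in fractions 6 and 10. The fall from 2C to 4C was 6.07 (SE 1.07, limma adjusted p = 3.58e-04; a fall of 3.10 with the mean of log2 values over fractions), while the transcriptome rose. Heavy Cdh1 then was 31.9, 114 and 30.5 CPM at 8C, a rise of 4.69 (SE 0.94, adjusted p = 0.0268) that lost its call without 4C gradient A (adjusted p = 0.0544), B (0.101) or C (0.0700) or without 8C gradient B (0.0709). It was also lost at a pseudocount of 5 (3.13, adjusted p = 0.120), with quantile normalization (3.33, 0.155), with only the 2 stages in the fit (0.189) and with the mean of log2 values (2.75, 0.0518). Morula gradients held 17.5, 24.6 and 57.6 CPM and blastocyst gradients 22.3, 13.9 and 28.4 CPM, which overlap. All 3 blastocyst gradients lay below all GV gradients, a fall of 3.69 (SE 0.32, adjusted p = 6.29e-10) beside a transcriptome rise.

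Tjp1 encodes ZO-1, which ties the tight junction to the actin cortex. Its transcriptome level lay at 20.8 to 22.6 CPM in the stage means of GV, MII and zygote. It was 31.2, 37.9, 31.1 and 47.1 CPM in the 2C libraries, above every oocyte and zygote library, and peaked at 4C with 71.3, 66.9, 77.3 and 73.7 CPM. From 4C to blastocyst the ranges of neighbouring stages overlapped, and no single step was called. The blastocyst libraries, at 51.1, 61.1, 48.2 and 45.9 CPM, were higher than GV by 1.15 (SE 0.18, limma adjusted p = 4.44e-07), which was below 1 with TMM factors (0.79) and in edgeR (0.88). In heavy fractions Tjp1 was 18.2, 9.95 and 16.05 CPM at GV and 0.922, 3.03 and 0.441 CPM in blastocysts. The fall of 2.78 (SE 0.50, adjusted p = 3.80e-05) was not called by edgeR (adjusted p = 0.143) or without stage weights (0.0636), and was 1.61 at a pseudocount of 5. At 2C the gradients held 42.9, 70.9 and 0.902 CPM and at 4C 0.152, 12.9 and 49.3 CPM, so that no level can be given for these stages beyond their spread. No Tjp1 read was found in 16 of 30 fraction libraries at 4C, 19 at 8C and 14 in morulae.

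Ocln (occludin), a multi-pass membrane protein of the tight junction, had the smallest transcriptome difference of the 9 genes between GV and blastocyst. GV libraries held 12.4, 16.9, 12.6 and 12.6 CPM and blastocyst libraries 11.1, 8.29, 8.26 and 10.5 CPM, a difference of -0.48 that was not called (limma adjusted p = 0.140). Between them it fell by 1.65 to 3.66 ± 0.656 CPM (SD, n = 4) at MII (SE 0.30, adjusted p = 1.49e-05; 0.85 under quantile normalization). It rose by 2.44 from zygote to 25.7, 13.9, 20.6 and 16.4 CPM at 2C (adjusted p = 1.25e-08) and fell by 1.44 at 4C (adjusted p = 5.40e-05). The 2C rise was not seen in the heavy fractions, where the gradients held 0.248, 0.101 and 0.150 CPM at 2C and 19 of the 30 libraries had no read. Heavy Ocln was 13.3, 16.8 and 15.6 CPM at GV and 7.44, 0 and 2.92 CPM at MII, a fall of 2.33 (adjusted p = 0.0277) lost without GV gradient B (0.0815) or C (0.0702) or MII gradient B (0.275) or C (0.0561). It was also lost in edgeR (adjusted p = 0.995), without weights (0.246), at a pseudocount of 0.1 (0.0507) and with fractions 7 to 10 as heavy (0.0716), and the alternatives ranged from -3.54 to -1.35. Blastocyst gradients held 6.03, 4.14 and 1.96 CPM, below GV by a fall of 1.77 (adjusted p = 0.00835), not called by edgeR (adjusted p = 0.515), without weights (0.151), at a pseudocount of 0.1 (0.0628) or with quantile normalization (-1.11, 0.0539).

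F11r encodes the junctional adhesion molecule JAM-A, an immunoglobulin-type protein at the tight junction. It was near 1 CPM in oocytes and zygotes, with stage means of 0.910 to 1.34 CPM. All 2C libraries were higher, at 39.7, 25.4, 20.2 and 13.3 CPM, a rise of 3.59 (SE 0.30, limma adjusted p = 1.52e-12; 2.21 at a pseudocount of 5). At 4C the libraries held 89.8, 67.6, 69.3 and 142 CPM, a further rise of 1.89 (adjusted p = 7.19e-07). The ranges at 4C, 8C and blastocyst overlapped, and morulae lay below blastocysts (25.8, 58.2, 59.3 and 48.9 against 102, 73.2, 84.8 and 68.9 CPM) by a difference of 0.82 that is under the size set for a call (adjusted p = 0.0235). Heavy F11r was 1.38, 2.15 and 0.846 CPM at GV and 51.0, 64.7 and 37.0 CPM at 2C, 4.01 above zygote (SE 1.00, adjusted p = 0.0104; 0.0693 without 2C gradient B). Nearly all of each 2C mean came from 1 fraction, with 254 CPM in fraction 9 of gradient A, 323 CPM in fraction 10 of B and 185 CPM in fraction 7 of C. The call was lost with the mean of log2 values over fractions (0.78, adjusted p = 0.443) and at a pseudocount of 0.1 (5.13, adjusted p = 0.0775). It was 411, 321 and 814 CPM at 4C, 269, 440 and 811 CPM at 8C, 310, 268 and 434 CPM in morulae and 452, 455 and 519 CPM in blastocysts, and no step among these was called. Blastocysts exceeded GV by 7.63 (SE 0.40, adjusted p = 1.54e-13).

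Claudins form the paracellular barrier of the tight junction, and the 3 studied here started from different points. Cldn4 was present in oocytes, at 13.8, 13.3, 14.0 and 9.79 CPM at GV and 32.7, 20.7, 32.7 and 21.3 CPM at MII. This rise of 1.00 (limma adjusted p = 0.00134) was below the size set for a call without GV library D (0.89), MII library A (0.90) or MII library C (0.90) and at a pseudocount of 5 (0.83), and was 1.55 at most over the alternatives. Cldn4 fell by 2.87 in zygotes (SE 0.26, adjusted p = 1.22e-10) and by 1.25 at 2C (adjusted p = 1.05e-04), where the libraries held 0.642, 0.613, 0.762 and 0.295 CPM. From this low point it rose at each step: by 1.85 at 4C (adjusted p = 8.00e-08), by 1.10 at 8C (adjusted p = 0.00672; 0.90 and 0.99 without 8C library A or C, and adjusted p = 0.0602 with only the 2 stages in the fit) and by 1.80 in morulae (adjusted p = 2.59e-06). A pseudocount of 5 took the 2C, 4C and 8C steps below the size set for a call, at -0.49, 0.79 and 0.75; over all alternatives the 2C step ranged from -2.69 to -0.49 and the 4C step from 0.79 to 2.89. The last rise, by 1.31 (adjusted p = 7.88e-05), took it from 25.6, 47.5, 49.6 and 47.0 CPM in morulae to 98.5, 110, 130 and 81.4 CPM in blastocysts.

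In the heavy fractions Cldn4 showed the same low point with wider swings. Gradients held 62.4, 23.4 and 18.8 CPM in zygotes, 0.0487, 0.0576 and 0.0230 CPM at 2C and 232, 261 and 214 CPM at 4C. All 2C gradients were at or under 3 reads, so the folds set 2C at 3 reads over the summed heavy reads of a gradient. This is not the same measure as a mean CPM over fractions, and the folds are not strict bounds. Heavy Cldn4 at 2C was 653-fold lower than zygote (limma adjusted p = 6.45e-05) and 4409-fold lower than 4C (limma adjusted p = 1.38e-05) on this scale. The heavy means of the 4C gradients were close to each other, while single fractions were not: fraction 9 held 961, 69.0 and 258 CPM. Morula gradients held 893, 643 and 1151 CPM, above 8C (392, 247 and 229 CPM) by 1.63 (adjusted p = 0.0469). That call was lost without any of the 6 gradients of the 2 stages, with adjusted p from 0.0605 without morula gradient A to 0.216 without 8C gradient C. It was also lost at a pseudocount of 0.1, with quantile normalization, TMM factors, edgeR, fractions 7 to 10 as heavy and the replicate block (adjusted p from 0.0523 to 0.114). Blastocyst gradients were lower than every morula gradient, at 466, 630 and 588 CPM, a difference that was not called. Against GV, with 65.7, 43.2 and 53.1 CPM, heavy Cldn4 in blastocysts was higher by 3.36 (SE 0.28, adjusted p = 3.96e-10).

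Cldn6 was near absent from oocytes and zygotes, with no library above 0.909 CPM. It appeared at 2C with 23.7, 15.9, 19.5 and 17.2 CPM, a rise of 4.21 (SE 0.29, limma adjusted p = 4.84e-15; 2.23 to 7.49 over the alternatives), and fell by 1.22 to 7.59 ± 1.28 CPM (SD, n = 4) at 4C (adjusted p = 2.20e-04; -0.93 at a pseudocount of 5). Ranges at 4C, 8C and morula overlapped. Blastocyst libraries held 77.5, 57.1, 77.0 and 63.9 CPM, above morulae (9.52, 11.1, 11.1 and 18.5 CPM) by 2.40 (adjusted p = 1.23e-08). At 2C Cldn6 was present in the heavy fractions too, with 122, 206 and 89.4 CPM, 6.05 above zygote (SE 0.92, adjusted p = 1.29e-04; 2.94 with the mean of log2 values over fractions). These 2C means came mostly from few fractions. Gradient A had 212 and 396 CPM in fractions 8 and 10, B had 760 CPM in fraction 10, and C had 445 CPM in fraction 6. Heavy Cldn6 was 71.6, 280 and 470 CPM in morulae and 333, 405 and 303 CPM in blastocysts, 8.15 above GV (SE 0.37, limma adjusted p = 1.19e-14).

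Cldn7 rose 1 step later. Its transcriptome level was 0.866 to 2.28 CPM in the stage means from GV to 2C and 41.3, 64.5, 48.8 and 26.1 CPM at 4C, a rise of 3.79 (SE 0.27, limma adjusted p = 3.66e-15). Libraries held 62.5, 52.5, 83.3 and 82.2 CPM at 8C and 107, 97.3, 147 and 188 CPM in morulae; these ranges did not overlap, though the step was not called. Blastocyst libraries held 410, 325, 495 and 586 CPM, above morulae by 1.76 (adjusted p = 1.29e-06) and above GV by 7.83 (adjusted p = 2.04e-24). Heavy Cldn7 at 2C was 48.6, 2.68 and 0 CPM, a spread wider than the level itself. It was 110, 95.6 and 72.2 CPM at 4C, 187, 122 and 220 CPM at 8C, 227, 380 and 715 CPM in morulae and 411, 484 and 474 CPM in blastocysts. No step between neighbouring stages was called, and blastocysts exceeded GV by 6.76 (SE 0.47, adjusted p = 2.07e-11).

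Aqp3 encodes a channel for water and glycerol. No oocyte or zygote library held more than 0.350 CPM, and the 2C libraries held 1.92, 0.766, 2.03 and 0.295 CPM. At 4C they held 6.71, 8.30, 10.6 and 3.19 CPM, a rise of 1.86 (SE 0.29, limma adjusted p = 4.06e-07; 0.94 at a pseudocount of 5). Morula libraries held 6.53, 16.2, 9.41 and 17.3 CPM, above 8C (6.58, 5.55, 5.13 and 3.58 CPM) by 1.04 (adjusted p = 0.00543), though the ranges overlapped. The difference was 0.90 without 8C library D, 0.88 without morula library B and 0.86 without morula library D. The call was also lost at pseudocounts of 0.1 (adjusted p = 0.139) and 5 (0.72), with quantile normalization (0.81), TMM factors (0.95) and edgeR (adjusted p = 0.135). Blastocyst libraries, at 29.7, 17.5, 20.1 and 22.8 CPM, all exceeded the morula libraries by a difference of 0.88, under the size set for a call (adjusted p = 0.0102). In heavy fractions Aqp3 had no read in any gradient at GV, MII, zygote or 2C. It was present at 4C with 33.8, 120 and 77.8 CPM, 1447-fold above 3 reads over the summed heavy reads of a 2C gradient (limma adjusted p = 1.77e-04). As for Cldn4, such a fold is not a strict bound. Gradients held 34.1, 65.9 and 182 CPM at 8C, 171, 133 and 326 CPM in morulae and 186, 242 and 228 CPM in blastocysts. The blastocyst level was 8416-fold above GV set at 3 reads in the same way (limma adjusted p = 5.28e-16). For Aqp3 too, limma tested the differences in log2(CPM + 1) and not the folds.

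Atp1b1, the beta subunit that brings the sodium pump to the membrane, had its lowest stage mean at 8C. It was 5.98, 7.71, 4.92 and 5.08 CPM at GV and 14.9, 10.9, 11.6 and 13.4 CPM at 2C. At 4C it was 6.14, 4.59, 10.6 and 10.7 CPM and at 8C 2.71, 2.91, 1.85 and 1.21 CPM, a fall of 1.47 (SE 0.28, limma adjusted p = 0.00117) that was 0.83, below the size set for a call, at a pseudocount of 5. Morula libraries held 1.42, 4.36, 6.27 and 3.04 CPM, overlapping 8C. Blastocyst libraries held 43.2, 19.2, 39.5 and 37.3 CPM, above all others of the series, a rise of 2.96 from morula (SE 0.28, adjusted p = 8.29e-11). No such rise was called in the heavy fractions. They held 3.63, 8.04 and 4.37 CPM at GV, 3.79, 4.24 and 13.9 CPM in morulae and 7.44, 2.73 and 5.58 CPM in blastocysts, a difference of -0.04 between GV and blastocyst (SE 0.38, adjusted p = 0.932). Heavy Atp1b1 was 0.2007, 0.0438 and 0 CPM at 8C, below morula by 2.74 (adjusted p = 0.0134), a call lost without 8C gradient B (0.0535) or C (0.0807) or morula gradient C (0.0590) or with quantile normalization (0.0522), and 1.18 to 6.80 in size over the alternatives. No Atp1b1 read was found in 26 of 30 fraction libraries at 4C and 25 at 8C. A gene with no read could still be present below 3 reads per library; intervals and such limits cover counting error only, because amplified reads without molecular identifiers are not separate molecules.

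The position of each mRNA along the gradient was compared next, as the heavy against the light mean of the same stage. In blastocysts 4 of the 9 genes were higher in the heavy fractions (F11r, Cldn4, Cldn6 and Aqp3) and 1 was lower (Cdh1), where 7.24% of 15172 genes were higher and 10.1% lower. Morulae had 2 higher (Cldn4 and Aqp3) and none lower, with 5.06% and 6.29% of all genes. MII oocytes had 1 higher (Cdh1) and none lower, with 8.86% and 6.33%. None of the 9 was called by limma at GV (3.30% higher and 0.811% lower of all genes), zygote (9.95% and 5.06%), 2C (1.52% and 2.02%), 4C (0.125% and 0.692%) or 8C (1.08% and 4.03%). The unadjusted p was under 0.05 for 2 genes at 2C (Cdh1 and F11r), 3 at 4C (Cdh1, Ocln and Aqp3) and 0 at the other 3 stages; edgeR called 3 at 2C, 1 at 4C and 0 at the others. Of all called genes, the share higher in heavy fractions went under quantile normalization from 80.3% to 53.3% at GV, from 66.3% to 52.2% in zygotes, from 42.9% to 57.9% at 2C and from 15.3% to 52.2% at 4C; with TMM factors it went from 41.7% to 51.7% in blastocysts. All 8 calls on the 9 genes were lost in edgeR on recovered reads and in limma without stage weights, with the direction kept. Quantile normalization also ended those of Cldn4 and Aqp3 in morulae and of F11r, Cldn4 and Cldn6 in blastocysts, and a pseudocount of 0.1 ended 4 of these 5, with Cldn4 in blastocysts as the exception. In all, 10 of 15 alternatives ended the call of Cldn6 in blastocysts and 9 of 15 that of Cldn4 in morulae.

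Aqp3 stood furthest to the heavy side in blastocysts. Heavy means were 186, 242 and 228 CPM and light means 46.1, 82.3 and 82.2 CPM in gradients A, B and C, a difference of 1.66 (SE 0.34, limma adjusted p = 3.11e-04). Its mean level went from 56.8 CPM in fraction 1 to 300.4 CPM in fraction 10, and the heavy fractions held 80.1%, 74.6% and 73.5% of its summed CPM. F11r differed by 1.33 (adjusted p = 0.00746; 0.0753 without gradient A), with heavy means of 452, 455 and 519 CPM and light means of 174, 181 and 213 CPM. F11r was highest in fraction 9 in all 3 gradients, at 706 ± 72.1 CPM (SD, n = 3) against 110 ± 51.3 CPM in fraction 1. Cldn4 differed by 1.20 (adjusted p = 0.00455; 0.0976 without gradient A), with light means of 145, 282 and 344 CPM and a highest mean of 718 ± 159 CPM in fraction 8. Cldn6 differed by 1.13 (adjusted p = 0.0271), a call lost without gradient A (0.234), B (0.0698) or C (0.0806). Cldn7, at 0.67, was not called (adjusted p = 0.305), and its heavy share of 59.8%, 63.6% and 61.1% was lower than that of Aqp3 in every gradient.

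Cdh1 was on the other side. Blastocyst light means were 69.5, 49.2 and 77.7 CPM, each above every heavy mean, and the difference was -1.59 (SE 0.32, limma adjusted p = 2.22e-04). Its mean peaked at 86.7 ± 38.9 CPM (SD, n = 3) in fraction 3 and was 13.5 ± 8.11 CPM in fraction 10, so that the heavy fractions held 24.3%, 22.0% and 26.8% of the summed CPM. At MII the order was the reverse, with heavy means of 500, 367 and 409 CPM against light means of 213, 221 and 120 CPM. That difference of 1.24 (adjusted p = 0.0207) was lost without MII gradient A (0.0786), B (0.0753) or C (0.195). Tjp1 in blastocysts lay 1.51 lower in the heavy fractions, which was not called (adjusted p = 0.0628) but passed with the gradient as a block (adjusted p = 0.0410). In morulae Cldn4 was higher in heavy fractions by 1.44 (adjusted p = 0.0453; 0.254 and 0.314 without gradient B or C) and Aqp3 by 1.78 (adjusted p = 0.0185; 0.120 and 0.159). F11r in morulae, at 1.58, was not called (adjusted p = 0.0635) and passed with the gradient block (adjusted p = 0.0181).

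**Figure D3:**
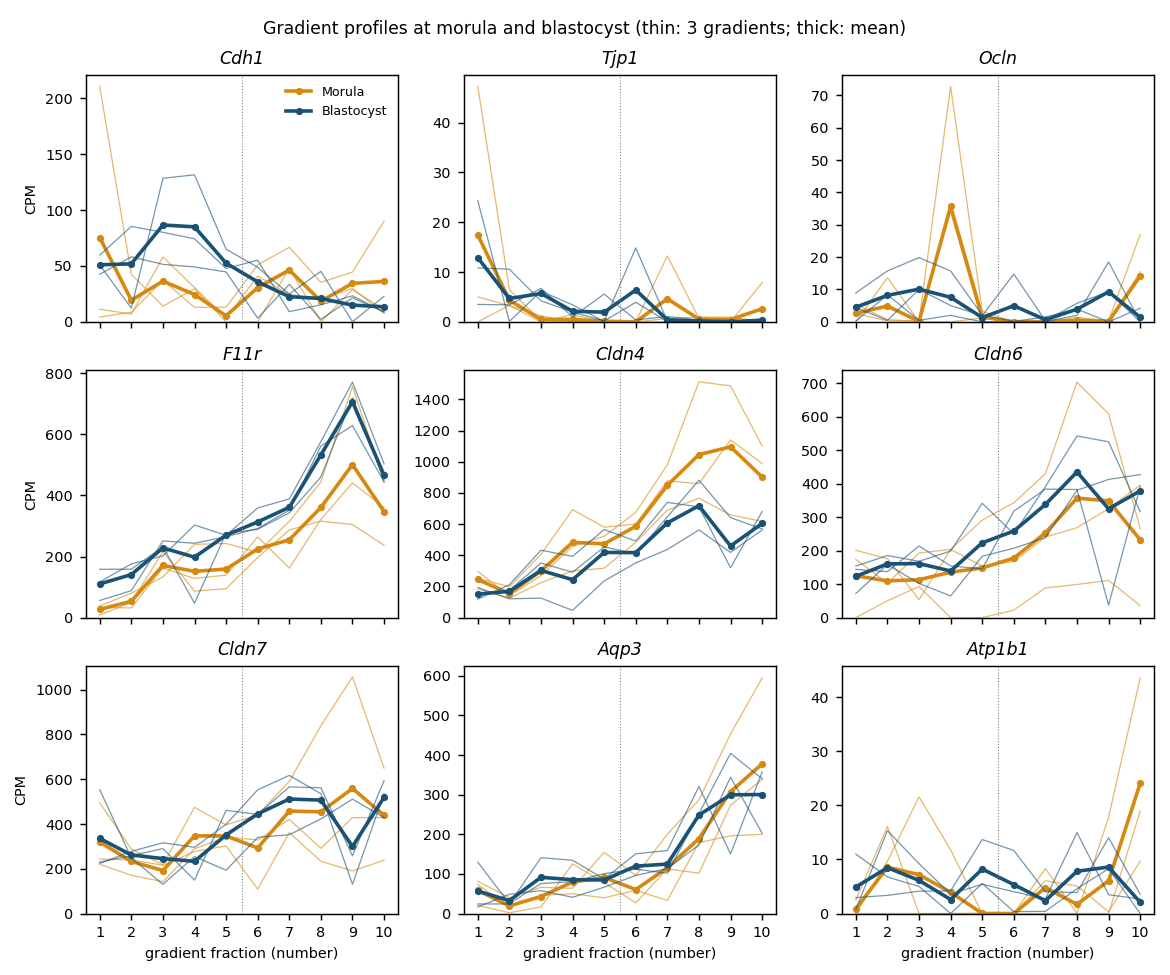
CPM by gradient fraction, 1 to 10, in morulae (orange) and blastocysts (blue), on a linear scale of its own per gene; thin lines are the 3 gradients, thick lines their mean, and the dotted line parts light from heavy fractions. In blastocysts F11r climbs from 110 CPM in fraction 1 to 706 CPM in fraction 9, while Cdh1 goes from 86.7 CPM in fraction 3 to 13.5 CPM in fraction 10.

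Whether the heavy level moved by more or less than the transcriptome was tested as an interaction of stage and library kind. Between GV and blastocyst 3 of the 9 genes gained in heavy fractions beyond the transcriptome (F11r, Cldn6 and Aqp3) and 3 lost (Cdh1, Tjp1 and Atp1b1), where 13.7% of 15165 genes gained and 33.9% lost. Cdh1 lost 4.91 on the log2 scale, since the transcriptome rose and the heavy level fell, and the change of -4.91 had an SE of 0.37 (limma adjusted p = 8.04e-16). The changes were -3.92 for Tjp1 (SE 0.46, adjusted p = 4.22e-10) and -2.36 for Atp1b1 (SE 0.49, adjusted p = 6.93e-05). On the other side stood Aqp3 with 3.33 (SE 0.45, adjusted p = 1.90e-08; 8.95 in edgeR, from a GV level of 0 in heavy fractions), Cldn6 with 2.47 (SE 0.49, adjusted p = 3.40e-05) and F11r with 2.46 (SE 0.57, adjusted p = 2.76e-04). In edgeR the calls of F11r, Cldn6 and Atp1b1 were lost (adjusted p = 0.103, 0.114 and 0.339). At GV the means of Aqp3, Cldn6 and F11r were 0.0748, 0.393 and 1.34 CPM in transcriptomes and 0, 0.241 and 1.46 CPM in heavy fractions. From such levels the added 1 keeps heavy minus transcriptome near 0 at GV (-0.10, -0.17 and 0.07). A gain cannot be told from a difference present whenever the gene is expressed. At 4C that difference was already 3.26, 3.56 and 2.47. For Cldn4, expressed at GV, it was 2.00 at GV. Ocln (-1.29, adjusted p = 0.0602), Cldn4 (0.42) and Cldn7 (-1.06, adjusted p = 0.0895) were not called by limma. The light fractions were not part of this test. In blastocysts they too lay below the transcriptome, at -1.31 for Cdh1, -3.02 for Tjp1 and -2.34 for Atp1b1. The heavy differences were -2.87, -4.42 and -2.52, so that a loss is not particular to the heavy side.

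**Figure D4:**
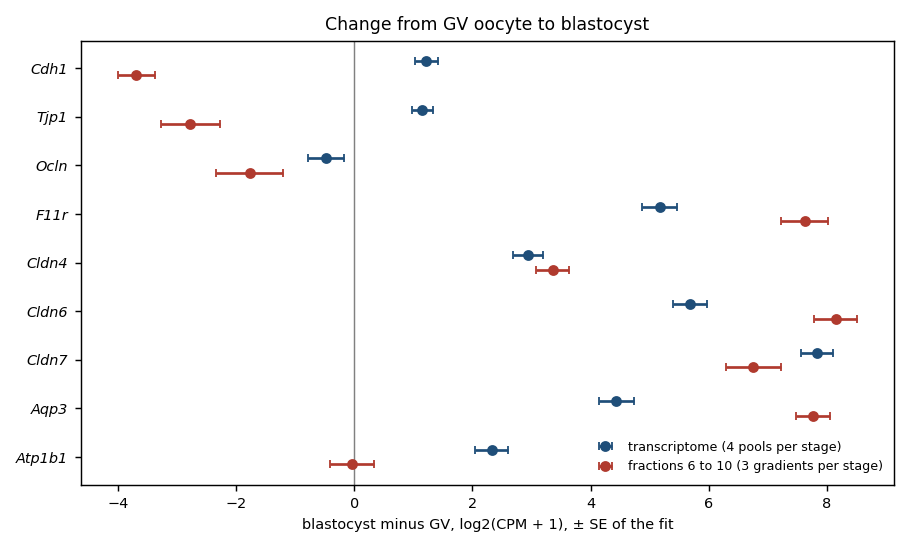
Blastocyst minus GV for each gene in the transcriptome (blue) and in heavy fractions (red), in log2(CPM + 1) units, with bars of 1 SE of the fit. For Cdh1 and Tjp1 the transcriptome is above 0 (1.22 and 1.15) and the heavy fractions are below 0 (-3.69 and -2.78).

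At the last step, morula to blastocyst, none gained and 3 lost (2.04% and 5.65% of all genes): Cdh1 by -2.33 (SE 0.43, limma adjusted p = 2.81e-04), Cldn4 by -1.96 (SE 0.55, adjusted p = 0.0166) and Atp1b1 by -3.24 (SE 0.58, adjusted p = 1.61e-04). In these 3 genes the transcriptome rose while the heavy level did not change by a call. Light minus transcriptome fell as well, from -0.50 to -1.31 for Cdh1, 2.94 to 1.28 for Cldn4 and 0.10 to -2.34 for Atp1b1. The Cldn4 call was lost without morula gradient B (0.0574) or C (0.115) or blastocyst gradient A (0.0555), at a pseudocount of 0.1 (0.0932) and with TMM factors (0.0635), and edgeR called none of the 3 (adjusted p = 0.0736, 0.190 and 0.208). From zygote to 2C none gained and 2 lost (0.191% and 8.47%): Ocln by -4.27 (adjusted p = 0.0372) and Cldn4 by -3.65 (adjusted p = 0.0236). The Ocln call was lost without zygote gradient A (0.0789) or B (0.0637) or 2C gradient A (0.101), B (0.139) or C (0.119), and with fractions 7 to 10 as heavy (0.144). The Cldn4 call was lost without zygote gradient A (0.0743) or 2C gradient A (0.0739), B (0.0978) or C (0.0860). Both were lost at a pseudocount of 5 (adjusted p = 0.0691 and 0.0673), with quantile normalization (0.429 and 0.578) and with TMM factors (0.106 and 0.0970), and ranged from -6.79 to -2.0 for Ocln and from -6.71 to -1.34 for Cldn4.

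From 2C to 4C Cldn4 gained 5.98 (SE 1.44, limma adjusted p = 0.0126; 0.0796 without 4C gradient B and 0.0529 with quantile normalization) and Cdh1 lost, at -7.40 (SE 1.15, adjusted p = 1.18e-04; -4.44 with the mean of log2 values), where 0.844% of all genes gained and 1.73% lost. From 4C to 8C 1 gained and none lost (0.633% and 0.0132%): Cdh1 by 4.78 (adjusted p = 0.0131), lost without 4C gradient B (0.0538) or 8C gradient B (0.0613), at a pseudocount of 5 (3.21, 0.0891) and with quantile normalization (3.04, 0.169). No member was called by limma at GV to MII (12.3% and 4.34%), MII to zygote (1.64% and 1.77%) or 8C to morula (2.09% and 1.19%). Each of these had 1 gene with an unadjusted p under 0.05 (Atp1b1, Cldn4 and Atp1b1), and edgeR called 0, 0 and 1. Quantile normalization moved the share of called genes that gained from 73.9% to 60.1% at GV to MII, from 48% to 36.7% at MII to zygote, from 2.2% to 39.8% at zygote to 2C, from 32.8% to 55.4% at 2C to 4C, from 98.0% to 35.7% at 4C to 8C, from 26.6% to 50.8% at morula to blastocyst and from 28.9% to 51.4% at GV to blastocyst.

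Per kilobase of merged exon (GENCODE vM21 on GRCm38), levels can be compared between genes. In blastocyst transcriptomes Cldn7 was highest at 233 ± 57.7 CPM per kb (SD, n = 4), followed by Cldn4 at 57.8 ± 11.2, Cldn6 at 40.0 ± 5.84, Cdh1 at 35.9 ± 7.25 and F11r at 30.9 ± 5.59 CPM per kb. Aqp3 (12.3 ± 2.86), Atp1b1 (11.3 ± 3.48), Tjp1 (6.60 ± 0.857) and Ocln (2.26 ± 0.346) followed. In blastocyst heavy fractions the order was Cldn4 at 309 ± 46.7 CPM per kb (SD, n = 3), Cldn7 at 234 ± 20.4, Cldn6 at 202 ± 30.6, F11r at 179 ± 14.2 and Aqp3 at 120 ± 15.9 CPM per kb. Cdh1, at 4.71 ± 1.59, Atp1b1, at 1.70 ± 0.769, Ocln, at 0.958 ± 0.482, and Tjp1, at 0.187 ± 0.176 CPM per kb, were far below. In GV oocytes Cdh1 led both, with 15.1 ± 1.44 CPM per kb in transcriptomes and 61.7 ± 11.7 in heavy fractions, ahead of Cldn4 at 7.01 ± 1.09 and 29.7 ± 6.23.

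Transcript length went with the difference between gradient and transcriptome libraries in blastocysts, on the heavy and on the light side. The merged exons of the 5 genes that rose in heavy fractions span 1.72 to 2.66 kb (Cldn6 1.72, Cldn4 1.82, Aqp3 1.83, Cldn7 1.95 and F11r 2.66 kb), and those of the others 3.08 to 7.81 kb (Atp1b1 3.08, Ocln 4.22, Cdh1 4.57 and Tjp1 7.81 kb). Over all genes at 1 CPM or more, the median difference of heavy level and transcriptome in blastocysts was 0.15 for 1975 genes under 2 kb, 0.23 for 3443 genes of 2 to 4 kb and -1.14 for 6271 longer genes. At GV the same medians were 0.09, 0.31 and 0.05. For light level minus transcriptome the medians were 0.20, -0.00 and -0.86 in blastocysts and 0.08, 0.28 and -0.30 at GV. The blastocyst difference of heavy level and transcriptome was -2.87 for Cdh1, -4.42 for Tjp1, -1.06 for Ocln and -2.52 for Atp1b1. It was 3.22 for Aqp3, 2.52 for F11r, 2.41 for Cldn4, 2.32 for Cldn6 and 0.01 for Cldn7. Of 7420 tested genes over 4 kb, 47.5% lost in heavy fractions beyond the transcriptome between GV and blastocyst and 8.67% gained, against 16.3% and 19.9% of 2909 genes under 2 kb. The part of length in the differences of the 9 genes was not tested.

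**Figure D5:**
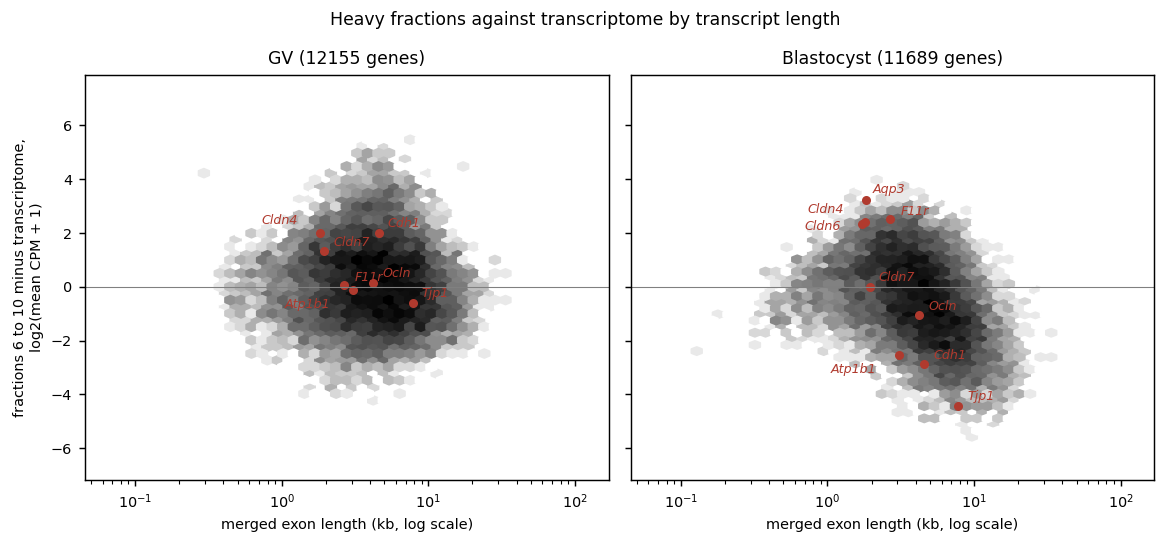
Heavy minus transcriptome level, in log2(CPM + 1) units, against merged exon length in kb on a log axis, at GV (12155 genes) and blastocyst (11689 genes); darker cells hold more genes and labelled points are the genes described here. At blastocyst Tjp1 lies at -4.42 and Aqp3 at 3.22; Cldn6 and Aqp3 are not plotted at GV, where they were under 1 CPM in both kinds of library.

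Other components of the same structures were read from lists of junction, polarity and ion transport genes. From morula to blastocyst the transcriptomes of 12 of 18 tight junction genes rose and none fell, where 18.8% of all genes rose and 7.97% fell, with a median of 1.37 against 0.16 over all genes. Among them Cldn9 went from 0.193 to 13.3 CPM (3.46, limma adjusted p = 3.32e-11) and Cgnl1, which encodes paracingulin, from 3.02 to 29.8 CPM (2.99, adjusted p = 1.12e-11). Of 20 adherens junction and desmosome genes 10 rose and none fell (median 0.98); the adhesion molecule Epcam went from 59.0 to 1015 CPM (4.14, adjusted p = 5.35e-17) and desmoplakin (Dsp) from 9.50 to 91.3 CPM (3.15, adjusted p = 1.26e-08). Of 27 apical polarity and cortex genes 13 rose and 1 fell (median 0.90). The membrane linker ezrin (Ezr) went from 6.39 to 50.6 CPM (2.91, adjusted p = 3.59e-09), and Rhoa, a small GTPase of the actin cortex, fell from 362 to 168 CPM by 1.10 (adjusted p = 1.80e-09). Of 12 pump and channel genes 4 rose and 1 fell (median 0.23). The ion cotransporter Slc12a2 fell from 175 to 15.2 CPM by 3.37 (adjusted p = 2.81e-13).

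In the heavy fractions limma called 1 of the 18 tight junction genes higher at the same step, and 1 of 27 polarity genes higher, where 1.81% of all genes were called higher and 1.63% lower. Heavy Epcam was 153 ± 106 CPM (SD, n = 3) in morulae and 204 ± 68.8 CPM in blastocysts, and relative to the transcriptome it lost, at -3.55 (limma adjusted p = 2.22e-05). Between GV and blastocyst, 16 of 20 adherens genes lost and 1 gained in heavy fractions beyond the transcriptome, where 33.9% of all genes lost and 13.7% gained (median -1.71 against -0.43 over all genes). Of 18 tight junction genes 9 lost and 3 gained (median -1.31), of 27 polarity genes 16 lost and 1 gained (median -1.29), and of 13 pump and channel genes 5 lost and 1 gained (median -0.11), a share near that of all genes. The gain of Cldn3, 1.80 (adjusted p = 3.02e-04), was in the direction of its relative Cldn6, while Ctnna1, whose product alpha-catenin binds the cadherin complex, changed by -3.98 (adjusted p = 1.36e-13) as Cdh1 did. Atp1b3, another beta subunit of the pump, lay lower in heavy than in light fractions of blastocysts, by -1.47 (adjusted p = 4.34e-04).

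The stage patterns of the 9 genes were compared with each other and with 12251 genes over 16 stage means (8 of transcriptomes and 8 of heavy fractions), as a description, since the means share libraries and depth. F11r and Cldn6 were the most alike pair (Pearson r = 0.928), followed by F11r and Aqp3 (0.899) and Cldn7 and Aqp3 (0.896). Tjp1 and Cldn4 were the least alike (-0.715), and Cdh1 and F11r had r = -0.642. The genes nearest to Aqp3 were Pla2g5 (0.990) and Gm7850 (0.988), and those nearest to F11r were Ctsz (0.987) and Gm2a (0.986). Cldn7 was nearest to Coa3 and Lpcat3 (both 0.974), Cldn4 to Acp5 (0.968) and Spint2 (0.944), and Cldn6 to Rpp25 (0.961) and H2-D1 (0.960). Among those nearest to Tjp1 was Nsd3 (0.957). Nearest to Cdh1 were Arhgef7 (0.935) and Hsd17b4 (0.904), to Atp1b1 Chmp1b (0.918) and Ppp2r5a (0.885), and to Ocln Zfp35 (0.898) and Endod1 (0.890).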

How the data were processed

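Per the labels, polyA RNA was amplified with a Smart-seq kit, made into Nextera XT libraries and read as paired ends on a HiSeq X. The submitters' processing notes name Trim Galore 0.6.7, FastQC, HISAT2 2.2.1, featureCounts 2.0.1, edgeR and the build GRCm39, with no order. The authors deposited CPM values per symbol. The deposited values repeat some symbols, and 38 of the 272 columns summed to over 1M. The values of 9 columns were entered as signal values that the authors had scaled to the library total, and were used as CPM. Of 159 symbols in 76 groups of identical values 1 per group was kept, which left 15771. In 271 libraries every value was a whole number of reads within 0.05. The 2C transcriptome columns carry letters E to H, unlike the labels, and were used by stage only.

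The 9 genes and all gene lists were chosen with earlier results of these data known. Genes reaching 1 CPM in at least as many samples as a group has were tested on log2(CPM + 1) with limma 3.58.1 (mean-variance trend, stage weights for gradient means, R 4.3.3) and Benjamini-Hochberg adjustment over all genes tested. Calls needed an adjusted p under 0.05 and a difference of 1. The 4 fits covered transcriptomes (32 libraries), heavy means (24), heavy and light means (48), and heavy means with transcriptomes (56). All 9 genes passed each filter and are named throughout; from each list up to 3 called genes per direction and comparison could be named. Some results that the rule would name are not reported here. Scripts were tested on simulated data. Heavy and light means of a gradient come from the same lysate and are paired by origin; their deviations correlated at 0.008 to 0.253 over 24 pairs, and the block is given where it changes a call. Alternatives were pseudocounts of 0.1 and 5, no filter, quantile normalization, TMM factors, edgeR 4.0.16 on recovered reads, only the groups compared, no weights, other fraction limits, the mean of log2 values, the replicate block and leaving out each library or gradient.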

Additional observations from a re-analysis of the deposited data

Results flagged for a closer look

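Of 72 groups of 4 transcriptome libraries, 9 had 1 library whose gap to its nearest neighbour, over the group's range, exceeded Dixon's critical value. Chance gives about 1 in 20 for values of normal spread, a rate that does not apply where all but 1 library have no read. Ocln was 16.9 CPM in GV library B, with the others at 12.4 to 12.6 CPM, and 2.02 CPM in zygote library A, with the others at 2.78 to 2.89 CPM. F11r was 2.91 CPM in zygote library A, against 0.332 to 0.759 CPM. Cldn4 was 9.79 CPM in GV library D, against 13.3 to 14.0 CPM, and 25.6 CPM in morula library A, against 47.0 to 49.6 CPM. The other 4 were single libraries above 0 where the rest held no read, so that the gap equals the range and the flag is fixed. They were Cldn6 at 0.167 CPM in MII library B and 0.350 CPM in zygote library C. Aqp3 was at 0.299 CPM in GV library D and 0.350 CPM in zygote library C.

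The heavy fractions and the transcriptome differed in their change, by the interaction test in limma, in 14 cases. Between GV and blastocyst the extra change in heavy fractions was -4.91 for Cdh1, -3.92 for Tjp1, -2.36 for Atp1b1, 2.46 for F11r, 2.47 for Cldn6 and 3.33 for Aqp3. From morula to blastocyst it was -2.33 for Cdh1, -1.96 for Cldn4 and -3.24 for Atp1b1. From zygote to 2C it was -4.27 for Ocln and -3.65 for Cldn4, from 2C to 4C -7.40 for Cdh1 and 5.98 for Cldn4, and from 4C to 8C 4.78 for Cdh1. For F11r, Cldn6 and Aqp3 the GV means were 1.34, 0.393 and 0.0748 CPM in transcriptomes. Their GV to blastocyst values thus follow the added 1.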

How the results depend on the processing

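The transcriptome calls kept their side of the threshold in every alternative for 21 of 33 results, the heavy-fraction calls for 11 of 18, heavy against light for 0 of 8 and the change beyond the transcriptome for 4 of 14. Scaling moved the median of all genes by -0.45 to 0.27 (transcriptome), -0.35 to 0.50 (heavy), -0.08 to 0.30 (heavy against light) and -0.44 to 0.93 (beyond the transcriptome) under quantile normalization; no called result of the 9 genes changed direction under quantile normalization, TMM factors or edgeR. Counts of calls over the 9 genes and 7 transitions moved as follows, and the cause was not tested. Transcriptome falls went from 8 to 5 at a pseudocount of 5. Heavy falls went from 3 to 5 under quantile normalization, TMM factors, only the groups compared and the mean of log2 values, and GV to blastocyst heavy falls from 3 to 1 in edgeR and without weights. Heavy above light over 8 stages went from 7 to 3 at a pseudocount of 0.1 and without weights, and to 2 under quantile normalization and edgeR. Heavy below light went from 1 to 3 at a pseudocount of 0.1, in edgeR and without weights, and to 2 with only the groups compared, fractions 7 to 10 against 1 to 4, the mean of log2 values and the replicate block. All 8 main calls of heavy against light were lost in edgeR and without weights. The calls counted under these settings are therefore other pairs of gene and stage. Gains beyond the transcriptome went from 2 to 1 under quantile normalization and to 6 with only the groups compared, edgeR and no weights; from GV to blastocyst they went from 3 to 1 in edgeR. Losses went from 6 to 11 with the mean of log2 values, which also reversed Cdh1 (-1.81, limma adjusted p = 0.0233, against 1.48) and F11r (-2.80, adjusted p = 0.00745, against 0.43) from zygote to 2C, neither called in the main result.

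Leaving out 1 library or gradient gave 16 to 19 transcriptome rises and 8 falls, and 4 to 8 heavy rises (4 without 8C gradient B) and 2 to 4 heavy falls. It gave 4 to 9 genes heavy above light (4 without blastocyst gradient A) and 1 to 2 below (2 without GV gradient A or B), 0 to 2 gains (0 without 4C gradient B, 1 without 8C gradient B) and 4 to 8 losses. With the replicate block the counts were 9 rises and 4 falls in transcriptomes and 6 and 3 in heavy fractions. They were 8 and 2 for heavy against light and 1 and 3 beyond the transcriptome. The transcriptome counts and those beyond it cover 5 transitions, without 2C, over which the main fit gave the same counts. From GV to blastocyst the block gave 8 and 0, 5 and 3, and 3 and 3. Deviations of transcriptomes with the same letter correlated at -0.178 to 0.169 and those of heavy means at -0.076 to 0.091. The sample labels do not say what a shared letter means, and these correlations cannot show whether such samples share an origin. Many fraction libraries of 2C to 8C had no read of a gene, with median depths of 10.0 M (2C), 8.502 M (4C) and 18.3 M reads (8C) against 16.6 M in zygotes; the part of depth in this was not tested. At any depth, levels under 3 reads per library cannot be told from 0.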
